A study of Homo sapiens with 22 samples.

Results

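The comparison described here set day 5 (D5) against day 3 (D3) of mRNA transfection in human BJ fibroblasts on their way to pluripotency. Its members were the 2 pools of D5 (D5 A and D5 B) and the 2 pools of D3 (D3 A and D3 B), taken by the time given for each sample. They held 6 of the 22 libraries, 4 of the 16 pools and 9242 of the 41975 cells kept in the series. A cell was kept when at least 1000 genes were detected in it and at most 10% of its unique molecular identifiers (UMIs, each standing for 1 captured RNA molecule) fell on mitochondrially encoded genes. UMI counts of all kept cells were summed per pool, with both libraries of a D5 pool added together, so that the pool and not the cell was the replicate.

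BJ is an established line of human foreskin fibroblasts. The cells grew in microfluidic chips under low oxygen and received synthetic mRNAs encoding the reprogramming factors POU5F1, SOX2, KLF4, MYC, LIN28 and NANOG once a day. Transfection ran from day 1 to day 8, so that D3 and D5 were both sampled during it, in the same medium. Day 0 (D0) was sampled before it. The line was cultured in DMEM with fetal bovine serum, and reprogramming medium was given from day 1. D0 thus differed from D3 and D5 in medium as well as in transfection. In the gaps from D0 given below, medium and transfection cannot be told apart. Each pool mixed the cells of 4 independent chips and was divided into frozen aliquots, 1 of which was sequenced for each D3 pool and 2 for each D5 pool. All pools came from 1 line, and the p-values given here measure only the spread between pools of chips.

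Reprogramming replaces the expression programme of a somatic cell with that of the pluripotent cell of the early embryo. In fibroblasts it is known to begin with a loss of mesenchymal traits and a gain of epithelial ones, called the mesenchymal-to-epithelial transition, while the embryonic programme is switched on later. Synthetic mRNA is short-lived and must be given again each day, and cells can sense it as foreign RNA through the interferon system. Signals secreted between cells, among them chemokines, TGF-beta family members and WNT and FGF ligands, are known to act on this process.

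The kept cells numbered 1881 in D3 A, 4779 in D3 B, 1767 in D5 A and 815 in D5 B. Pool totals ran from 35282799 UMIs in D5 B to 151013391 in D3 B, and the median cell held 28763 to 46201 UMIs. Mitochondrial genes took 2.89 to 4.76% of the UMIs and ribosomal protein genes 27.0 to 30.6%, with the pools of both days overlapping in each. Between the 2 aliquots of a pool, 92.7% of the tested genes in D5 A and 97.0% in D5 B differed by less than 2-fold, with 1 added to each CPM value (UMI counts per 1000000 UMIs). Genes under 1 CPM in both aliquots were thus counted as alike whatever their ratio. Any 2 of these libraries shared at most 15 cell barcodes. The fibroblast label was checked with 8 markers, which were all found and summed to 2599 and 2367 CPM (UMI counts per 1000000 UMIs of the pool) in the D3 pools and 6009 and 3606 in the D5 pools, with none called. Markers of keratinocytes, endothelium and mesendoderm were near 0, apart from KRT10: KRT5 and KRT6A had no UMI in these 4 pools, the 6 endothelial markers summed to 0.756 and 0.649 CPM on D3 and 1.97 and 1.502 on D5 (both D5 pools higher, none called), and T, EOMES, CER1 and FOXA2 had none. Of the leukocyte markers, CD3E had no UMI, and the list as a whole was lower on D5 (15.8 and 24.4 CPM) than on D3 (27.9 and 39.5), nearly all of it from CD68. Neural markers summed to 248 and 292 CPM on D3 and 215 and 252 on D5, nearly all from NES and STMN2. Among them SOX1 had 0.884 and 2.07 and then 3.22 and 4.90 CPM, and STMN2 99.2 and 100 and then 60.9 and 81.7 CPM. Trophoblast markers summed to 22.1 and 17.4 and then 15.1 and 17.2 CPM, melanocyte markers to 2.95 and 2.38 and then 2.90 and 2.69 CPM. None of these was called, and their part in the result was not tested. No doublet caller was run, and the part of cell doublets in the results was not tested.

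Between D3 and D5, gain outweighed loss. Of 12794 genes tested, 409 were higher on D5 and 46 were lower, called at a Benjamini-Hochberg adjusted p below 0.01 with a log2 fold change beyond 0.25 in edgeR's quasi-likelihood test, so that 3.56% of the genes were called. A further look at size showed that 400 of the 409 rises were at least 2-fold, 242 at least 4-fold and 108 at least 8-fold, whereas 33 of the 46 falls reached 2-fold and 3 reached 4-fold. Most rises came from near silence, since 236 of the genes had a level under 1 CPM (levels of single tested genes are on library sizes scaled by TMM, marker sums and levels of untested genes on plain totals) in both D3 pools. Only 26 had 50 CPM or more in both D5 pools. In each of the 455 genes both D5 pools lay on the same side of both D3 pools, and 402 of the rises lay above both D3 pools in all 4 D5 aliquots, as all 46 falls lay below. Among all tested genes, both D5 pools lay above both D3 pools in 21.6% and below in 17.8%. The calls were made from these same pools and aliquots, so these counts describe the calls and are no separate support. The median log2 fold change of all genes was 0.0011. Scaling over all genes with a UMI, low ones included, moved that median to −0.21 and the calls to 316 higher and 137 lower, and a fit to the D3 and D5 pools alone called 27 genes, all higher on D5. Without D3 B, D5 A or D5 B the calls numbered 229, 235 and 246. In pool sums, a gain of cells of 1 kind and a gain of RNA in each cell cannot be told apart, and neither can a loss of such cells and a loss of RNA.

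**Figure D1:**
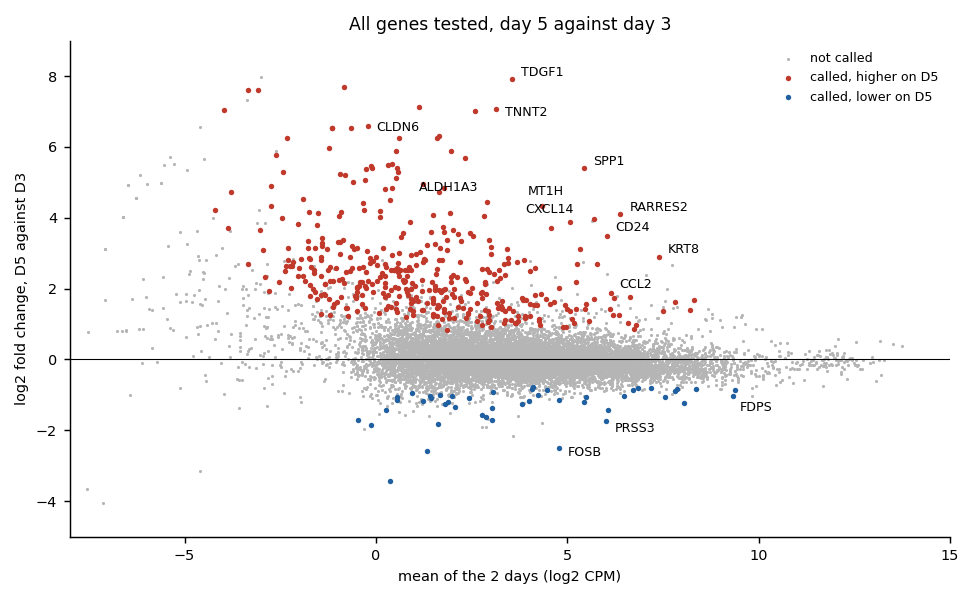
Log2 fold change of D5 against D3 (vertical axis) by the mean level of both days in log2 CPM (horizontal axis), 1 point for each tested gene, with 32 genes outside the axes. Red points are the 409 genes called higher on D5 and blue points the 46 called lower; most red points lie at low levels, TDGF1 stands at a log2 fold change of 7.91, and FDPS and PRSS3 lie among the well-expressed falls.

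The transfected factors were examined first, since their RNA is delivered with every dose. The files do not separate delivered from cell-made transcripts, so these counts may hold both. POU5F1, the transcription factor at the core of pluripotency, stood at 0.668 and 1.51 CPM in the D3 pools (A and B in this order, here and in what follows) and at 3.32 and 6.21 CPM in the D5 pools. Its log2 fold change of 2.09 ± 0.37 had an adjusted p of 0.0040 in edgeR, a call lost without D3 A or D5 B, and the value was 2.81 without D3 B. For this and all fold changes here n was 2 pools a day, and ± is a standard error taken from the edgeR test. That test estimates spread over all 16 pools, so ± is not the spread of the D3 and D5 pools alone. NANOG, its partner, went from 0.0848 and 0.0499 to 0.817 and 0.562 CPM (3.44 ± 0.33, edgeR adjusted p = 4.0e-05), but the fibroblasts of D0 already held 0.413 and 0.504 CPM, so both D5 pools were above, but close to, the untreated cells. Both genes have processed copies elsewhere in the genome that share sequence with them, which makes their counts uncertain. D0 held 0.136 and 0.163 CPM of POU5F1, below every D3 and D5 pool.

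The other 4 factors did not pass the test, though every D5 pool was above every D3 pool for 3 of them. SOX2, a further core pluripotency factor, measured 3.52 and 13.3 CPM on D3 and 30.98 and 54.3 CPM on D5 (edgeR adjusted p = 0.020; called without D3 B). LIN28A, an RNA-binding protein that blocks let-7 maturation, measured 14.5 and 70.1 and then 174 and 269 CPM (edgeR adjusted p = 0.079). For MYC, the growth-promoting factor, the levels were 19.4 and 9.22 CPM on D3 and 44.8 and 30.96 CPM on D5 (edgeR adjusted p = 0.055). KLF4, which fibroblasts also make themselves, overlapped between days, at 5.74 and 2.74 CPM on D3 and 9.12 and 4.41 CPM on D5, far below its D0 level of 52.8 and 60.8 CPM. All 6 fold changes were positive, though that of KLF4 ran from log2 −0.16 to 1.32 over 19 alternative settings. Across the 6 factors, then, 2 were called, with a median log2 value of 2.21, beside 3.20% called higher and 0.360% lower among all genes. Without D3 A or D5 B 1 of them was called, without D3 B 3 (with a median log2 value of 2.93), and in the fit of D3 and D5 alone none.

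The transcripts AES and NME2 were listed here as companions of the transfected RNA, a label that the study's text does not give. AES, a corepressor of the Groucho family whose 3' end is used in some synthetic mRNAs, measured 152 and 167 CPM on D0, 11508 and 8372 CPM on D3 and 13739 and 13002 CPM on D5. The D3 and D5 levels differed by a log2 value of 0.43 ± 0.25 (edgeR adjusted p = 0.40). NME2 was listed at 6.94 and 193 CPM on D3 and 102 and 350.5 CPM on D5, and its pools overlapped.

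Of the 34 tested genes of the pluripotent state and the early embryo (40 of the 41 listed were in the files), 16 were higher on D5 and none was lower, beside 3.20% higher and 0.360% lower among all tested genes, and the list's median log2 fold change was 1.86. Leaving out any 1 pool left 11 higher, and the fit of D3 and D5 alone 4. With TMM factors over all genes 13 were higher and 1 was lower. Members near 0 on D3 could hardly be called lower. The detection filter over all days lets in genes that are high only later. Lists, here and below, were chosen with earlier results of these data known, so their counts are a description. The highest fold was that of TDGF1, the Nodal co-receptor also called Cripto, on chr3:46574534-46582457 (GRCh38, plus strand). This gene measured 0.0194 and 0.00709 CPM on D0, 0.148 and 0.0570 CPM on D3 and 21.2 and 25.8 CPM on D5, and both D5 pools stood far above either D3 pool. Its log2 fold change was 7.91 ± 0.39 (edgeR adjusted p = 8.2e-07), and it was 8.66 without D3 A and 7.29 without D3 B. TDGF1 has near-identical processed copies, and reads could be split among them.

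CD24, a glycosylated cell surface protein carried by pluripotent and epithelial cells (chr6:106969831-106975627, minus strand), rose too. Its level was 0.336 and 0.419 CPM on D0, 12.3 and 9.11 CPM on D3 and 108 and 131 CPM on D5, a log2 change of 3.48 ± 0.22 (edgeR adjusted p = 4.0e-06). L1TD1, an RNA-binding protein of pluripotent cells (chr1:62194849-62212328, plus strand), was already far above its D0 level of 2.31 and 1.92 CPM on D3, with 28.8 and 62.4 CPM, and reached 128 and 181 CPM on D5. That step of 1.76 ± 0.36 passed narrowly (edgeR adjusted p = 0.0091) and was lost in 6 of 19 alternatives, among them the fits without D3 A, D5 A or D5 B and the one with TMM factors over all genes; without D3 B it was 2.42. LECT1, a cartilage-derived membrane protein used as a mark of human pluripotent cells, went from 1.91 and 1.696 to 6.47 and 10.3 CPM.

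Other called members of the list were near 0 on D3. FOXH1, the transcription factor that carries Nodal and activin signals to their targets, had 0.106 and 0.107 CPM on D3 and 2.27 and 2.66 CPM on D5 (log2 4.51 ± 0.37, edgeR adjusted p = 1.5e-05). GDF3, a ligand of the TGF-beta family, had 0.106 and 0.0356 and then 2.52 and 3.22 CPM. TRIM71, a let-7 target that promotes proliferation of embryonic cells, had 0.0318 and 0.0570 and then 2.59 and 3.11 CPM. Beside them, UTF1, an embryonic chromatin factor, went from 0.0106 and 0.143 to 1.78 and 3.37 CPM. DPPA4, ZFP42, SALL4, PODXL, ALPL, NR5A2, DPPA3 and LEFTY1 complete the 16. Their log2 fold changes ran from 1.66 (SALL4) to 4.15 (LEFTY1), leaving aside DPPA3, which had 0 and 0.00713 CPM on D3.

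The other 18 tested members of the list were not called, and 5 fold changes were negative. LEFTY2, an inhibitor of Nodal nearly identical to LEFTY1, had 0.0212 and 0.0143 CPM on D3 and 0.369 and 0.0591 CPM on D5 and was not called (edgeR adjusted p = 0.043). LIN28B stayed between 0.0224 and 0.118 CPM, and OTX2 had no UMI in any pool of D3 or D5. POLR3G and SOX11 were lower in both D5 pools, POLR3G at 22.01 and 23.6 CPM on D3 and 10.4 and 12.3 CPM on D5, without passing the test. Of the genes named, here and throughout, 71 followed a rule on size, level and list, and the others were chosen after their values were seen.

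**Figure D2:**
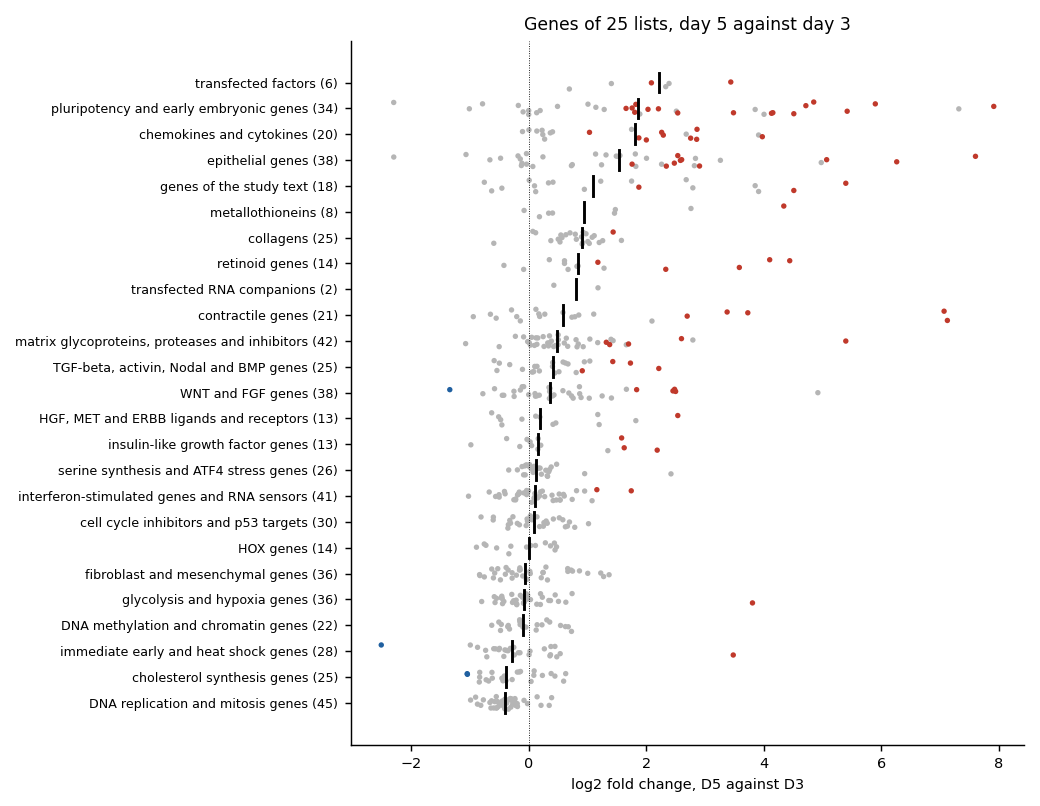
Log2 fold change of D5 against D3 (horizontal axis) of every tested gene in 25 gene lists, with the number tested in parentheses. Red points were called higher on D5, blue points lower, grey points not called, and the black bar is the list's median, which runs from 2.21 for the transfected factors to −0.40 for DNA replication and mitosis.

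Of 38 tested epithelial genes, 28 had positive and 10 negative fold changes, the lowest at log2 −2.30 (median log2 1.54). Both D5 pools lay above both D3 pools in 25 and below in 1, beside 21.6% and 17.8% of all genes. Called higher on D5 were 10, and none was called lower (all genes: 3.20% and 0.360%). Leaving out 1 pool left 8 to 10, and the fit of D3 and D5 alone 1. KRT8, the type II keratin of simple epithelia (chr12:52897187-52949954, minus strand), was the best expressed of the 10: 28.3 and 27.6 CPM on D0, 41.4 and 37.5 CPM on D3 and 297 and 294 CPM on D5. The D3 pools were close to those of D0, and the step to D5 was 2.91 ± 0.34 on the log2 scale (edgeR adjusted p = 2.2e-04). Its filament partner KRT18 stood at 267 and 216 CPM and then 489 and 574 CPM and missed the threshold (log2 1.14 ± 0.29, edgeR adjusted p = 0.035). Both keratins have many processed copies.

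Among proteins of the cell junction, CLDN6, a claudin of embryonic epithelia, went from 0 and 0.135 to 6.55 and 5.501 CPM (log2 6.26 ± 0.59, edgeR adjusted p = 3.8e-05; log2 5.47 without D3 A, the pool at 0, and 12.42 without D3 B, a fitted value against that pool alone, which depends on the prior count) and on to 55.5 and 36.5 CPM on day 7 (D7). OCLN, F11R, CDH3, PKP2 and LAD1, which belong to tight junctions, cadherin contacts and desmosomal or hemidesmosomal anchorage, were called too, at D5 levels of 0.19 to 3.68 CPM. SPINT2, a membrane-bound inhibitor of the proteases that activate HGF, went from 3.64 and 1.82 to 16.8 and 14.7 CPM (log2 2.54 ± 0.31, edgeR adjusted p = 2.6e-04). It had been higher on D0, at 8.81 and 8.87 CPM, than on D3. PRSS8, a membrane protease, rose with it. OVOL2, a repressor of mesenchymal genes, had no UMI in either D3 pool and 0.145 and 0.325 CPM on D5, still among the lowest of the called genes.

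The markers most used for an epithelial cell were not among these. CDH1, the epithelial cadherin, had 0 and 0.00713 CPM on D3 and 0.0224 and 0.0296 CPM on D5. EPCAM, an epithelial adhesion molecule, had 1.59 and 0.976 and then 1.94 and 2.37 CPM (edgeR adjusted p = 0.23). ESRP1, the epithelial splicing regulator, had 0.0336 and 0.0887 CPM on D5. The keratinocyte markers summed to 277 and 277 CPM on D3 and 293 and 332 on D5, nearly all from KRT10; both D5 pools lay above both D3 pools, none of the 6 markers was called, and their part in the result was not tested.

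On the mesenchymal side no gene of the 36 tested was called in either direction, close to the 3.20% higher and 0.360% lower of all genes, and 20 had negative and 16 positive fold changes (median log2 −0.07, which turned positive in 3 of 19 alternative settings). VIM, the intermediate filament of mesenchymal cells, had 7823 and 6322 CPM on D3 and 6788 and 4843 CPM on D5. ANPEP, an aminopeptidase of the fibroblast surface, had 251 and 189 and then 179.7 and 80.9 CPM (edgeR adjusted p = 0.52). SNAI2, a repressor of CDH1, measured 24.8 and 11.1 CPM on D3 and 50.5 and 33.4 CPM on D5, in the higher direction on D5 and also not called (edgeR adjusted p = 0.15). The 14 tested HOX genes, which record the body position of a fibroblast, had no call either, which for so few genes is near the 3.56% of all genes called.

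**Figure D3:**
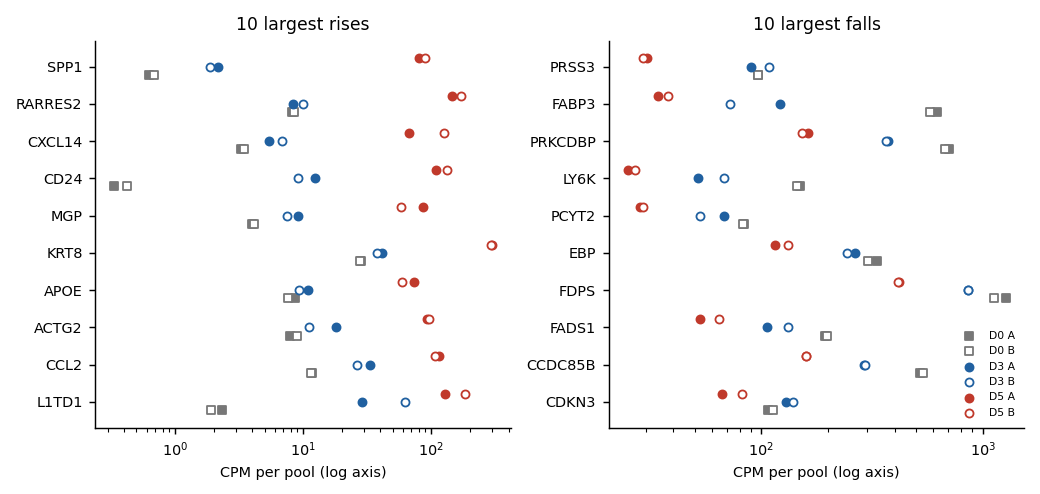
CPM of each pool (log axis) for the 10 largest rises (left) and the 10 largest falls (right) among called genes with at least 50 CPM in both pools of the higher day. Squares are D0, blue circles D3 and red circles D5, filled for pool A and open for pool B. Only genes whose D3 and D5 pools do not overlap could enter the figure. SPP1 has the widest gap of the rises.

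The 10 largest rises among well-expressed genes included SPP1, RARRES2, APOE and MGP. SPP1, osteopontin, a secreted phosphoprotein that binds integrins (chr4:87975667-87983532, plus strand), went from 2.15 and 1.87 to 80.1 and 88.9 CPM, a log2 change of 5.39 ± 0.46 (edgeR adjusted p = 1.8e-05). RARRES2, chemerin, a retinoid-induced chemoattractant (chr7:150338317-150341662, minus strand), was level on D0 (8.22 and 8.41 CPM) and D3 (8.37 and 10.03 CPM) and stood at 145 and 170.3 CPM on D5 (log2 4.10 ± 0.23, edgeR adjusted p = 2.6e-06). APOE, the lipid carrier apolipoprotein E, kept the same order, with 8.61 and 7.59 CPM on D0, 10.8 and 9.34 on D3 and 72.9 and 58.9 on D5 (log2 2.71 ± 0.19, edgeR adjusted p = 5.3e-06). MGP, the matrix inhibitor of calcification, was at 9.17 and 7.47 and then 85.5 and 57.8 CPM (log2 3.11 ± 0.48, edgeR adjusted p = 0.0015; not called without D3 B or D5 A).

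In the matrix list 5 of 42 genes were called, all higher on D5, beside 3.20% of all genes, and the median log2 fold change was 0.48. The count was 2 without D5 A, 3 without D3 B and 1 in the fit of D3 and D5 alone. Beside SPP1 these held POSTN, periostin, an adhesion protein of collagen-rich tissue, at 26.5 and 22.7 and then 89.1 and 70.5 CPM (log2 1.70 ± 0.25, edgeR adjusted p = 0.0012; not called without D3 B or D5 A). NID2, a basement membrane linker, measured 17.3 and 20.3 and then 54.4 and 43.4 CPM (edgeR adjusted p = 0.0083), and its call was lost in 10 of the 19 alternatives. LAMA5, a laminin chain, and MMP15, a membrane-bound metalloprotease, made up the rest. Of the proteases that the study's text names, none was called. MMP1, a collagenase, had 1805 and 1108 CPM and then 2008 and 1112 CPM (log2 0.10 ± 0.62). MMP3, stromelysin, had 3.92 and 4.23 and then 28.99 and 27.5 CPM, apart in every pool, with an edgeR adjusted p of 0.011. PLAU, the urokinase-type plasminogen activator, had 146 and 42.9 and then 162 and 76.5 CPM, and its receptor PLAUR 39.98 and 29.8 and then 42.4 and 27.7 CPM.

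Collagens leaned one way with few calls. Of 25 tested, 24 had positive fold changes (median log2 0.90), and 17 had both D5 pools above both D3 pools, beside 21.6% of all genes. COL4A1 alone was called (1 of 25, beside 3.20% of all genes called higher), a chain of the basement membrane collagen, with 17.8 and 22.7 CPM on D3 and 58.8 and 50.96 CPM on D5 (log2 1.44 ± 0.28, edgeR adjusted p = 0.0068), a call lost in 11 of 19 alternatives. The fibrillar chain COL1A1 measured 507 and 553 CPM on D3 and 1430.0 and 698 CPM on D5, so that the D5 pools lay further from each other than D5 B lay from D3. The same D5 A excess was seen in COL6A1, at 344 and 300.1 and then 949 and 446 CPM.

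Chemokines and cytokines had 9 calls among 20 tested (of 38 listed), all higher on D5, beside 3.20% of all genes, with a median log2 fold change of 1.81. Without D3 B or D5 A 5 of them were higher, and in the fit of D3 and D5 alone none. CXCL14, an epithelial and stromal chemokine, had 3.27 and 3.48 CPM on D0, 5.45 and 6.83 on D3 and 67.01 and 126 on D5 (log2 3.97 ± 0.32, edgeR adjusted p = 1.2e-05). CCL2, the main monocyte attractant of fibroblasts, had 11.7 and 11.4, then 33.5 and 26.5 and then 114 and 106 CPM (log2 1.87 ± 0.19, edgeR adjusted p = 6.0e-05). CCL7, its neighbour in the genome and in function, went from 2.73 and 2.58 to 23.3 and 15.02 CPM (edgeR adjusted p = 2.7e-04). CXCL6, a neutrophil attractant, went from 4.32 and 2.39 to 27.1 and 17.98 CPM (edgeR adjusted p = 0.0016; not called without D3 B or D5 A).

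The neutrophil attractants with the highest levels were not called, although their D5 pools were above both D3 pools. CXCL1 measured 65.4 and 48.98 CPM on D3 and 427 and 306 CPM on D5 (log2 2.68 ± 0.61, edgeR adjusted p = 0.018). CXCL8, interleukin 8, measured 9.28 and 3.27 and then 99.3 and 88.96 CPM (log2 3.91 ± 0.90, edgeR adjusted p = 0.020; log2 4.85 without D3 A). IL6, an inflammatory cytokine, measured 1.52 and 0.249 and then 3.23 and 2.54 CPM (edgeR adjusted p = 0.20). IL1B, a cytokine known to induce chemokines, was detected in too few cells to be tested, and held 1.98 and 1.98 CPM on D3 and 21.8 and 12.4 on D5, on plain pool totals. The rest of the 9 calls were CXCL3, CXCL5, IL34, IL32 and CXCL12. CXCL12, a chemokine of resting stroma, differed in course: it stood at 75.98 and 81.2 CPM on D0, 9.53 and 7.07 on D3 and 19.3 and 14.6 on D5, so that its rise left it far below the untreated cells.

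Interferon-stimulated genes and sensors of foreign RNA had 2 of 41 tested higher and none lower, beside 3.20% and 0.360% of all genes. Their median log2 fold change of 0.11 turned negative in 3 of 19 settings, the scaling over all genes among them (−0.11). IFIT1, which binds foreign 5' ends of RNA, had 37.1 and 31.7 CPM on D0, 7.88 and 5.19 on D3 and 24.5 and 19.2 on D5 (log2 1.74 ± 0.35, edgeR adjusted p = 0.0081). BST2, tetherin, had 8.43 and 8.17, then 3.52 and 2.79 and then 6.95 and 7.13 CPM (log2 1.16 ± 0.20, edgeR adjusted p = 0.0031). Both rises thus ended below D0, and both were lost in 10 of 19 alternatives. Of the cytosolic sensors, DDX58 (RIG-I) measured 1.898 and 2.19 and then 2.07 and 2.93 CPM and IFIH1 (MDA5) 11 and 19.9 and then 12.98 and 16.3 CPM, neither of them called. The antiviral modifier ISG15, at 136 and 164 and then 108 and 119 CPM, was not called either.

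The contractile list held 5 calls of 21 tested, all higher on D5 (median log2 0.58), beside 3.20% of all genes. Leaving out 1 pool left 4 or 5, and the fit of D3 and D5 alone 2. TNNT2, cardiac troponin T, had 0.0129 and 0.0284 CPM on D0, 0.0848 and 0.164 on D3 and 17.3 and 17.6 on D5 (log2 7.07 ± 0.43, edgeR adjusted p = 3.6e-06; log2 7.66 without D3 B). TNNC1, troponin C of slow and cardiac muscle, had 0.456 and 0.477 and then 5.58 and 6.86 CPM (log2 3.73 ± 0.26, edgeR adjusted p = 4.0e-06). ACTC1, cardiac actin, had 0.764 and 0.527 and then 6.36 and 6.95 CPM (edgeR adjusted p = 3.8e-04). ACTG2, the gamma actin of enteric smooth muscle, had 17.98 and 11.1 and then 93.2 and 95.4 CPM (log2 2.70 ± 0.47, edgeR adjusted p = 0.0034; not called without any 1 pool), and ANKRD1, a stress-responsive muscle protein, 0.0106 and 0.0428 and then 2.48 and 6.21 CPM.

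The other 16 contractile genes were not called. ACTA2, smooth muscle actin, had 63.9 and 56.3 CPM on D3 and 104 and 95.6 CPM on D5. TAGLN had 129 and 127 and then 217 and 167 CPM, and CNN1, a smooth muscle calponin, 3.56 and 3.34 and then 3.68 and 2.22 CPM. Markers of smooth muscle and pericytes summed to 41.6 and 39.1 CPM on D3 and 48.5 and 42.3 on D5, with MYH11 at 0.0852 to 0.179 and 1 of the 6, RGS5, called higher; their part in the result was not tested.

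In the TGF-beta, activin, Nodal and BMP list 4 of 25 tested genes were higher on D5 and none was lower, beside 3.20% and 0.360% of all genes. Without any 1 pool 2 were higher, and in the fit of D3 and D5 alone none. ID3, an inhibitor of differentiation and a direct BMP target, had 41.3 and 27.3 CPM on D3 and 92.5 and 135 CPM on D5 (log2 1.73 ± 0.23, edgeR adjusted p = 5.7e-04). ID1, a target of the same kind, had 21.6 and 21.6 and then 39.01 and 42.3 CPM (log2 0.91 ± 0.16, edgeR adjusted p = 0.0031; lost in 10 of 19 alternatives, all 4 that leave out a pool among them), and BAMBI, a decoy receptor that damps the pathway, 4.01 and 2.39 and then 14.6 and 14.99 CPM (edgeR adjusted p = 7.6e-04). The ligand TGFB2 was the remaining call, while the receptors TGFBR1, TGFBR2 and ACVR2A were not called. INHBA, which encodes a subunit of activin, was at 4.72 and 6.68 and then 10.4 and 11.6 CPM (edgeR adjusted p = 0.042).

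In the WNT and FGF list, 4 of 38 genes were higher and 1 was lower (all genes: 3.20% and 0.360%). Without D3 B 1 was higher and none lower, and in the fit of D3 and D5 alone there was no call. FRZB and SFRP2 both encode secreted proteins that bind WNT ligands. FRZB went from 6.73 and 3.12 to 31.8 and 23.7 CPM (edgeR adjusted p = 0.0027; not called without D3 B or D5 A, and log2 3.15 without D3 A in place of 2.50), and SFRP2 from 10.2 and 7.22 to 31.97 and 30.1 CPM (log2 1.84 ± 0.19, edgeR adjusted p = 8.8e-05). FGF18 and the receptor FGFR2 were higher as well. FGF1, a ligand without a classical secretion signal, fell, from 23.9 and 23.2 CPM on D0 to 5.197 and 6.78 on D3 and 2.54 and 2.16 on D5 (log2 −1.34 ± 0.25 for the second step, edgeR adjusted p = 0.0050).

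In the insulin-like growth factor list, of 13 genes, the ligand IGF1 and 2 binding proteins were higher, beside 3.20% of all genes. None of the 3 was called without D3 B, without D5 A or in the fit of D3 and D5 alone, and 1 was with TMM factors over all genes. IGFBP2 was at 129.9 and 91.7 CPM on D3 and 392.4 and 291 CPM on D5 (edgeR adjusted p = 0.0029), and IGFBP3, which carries most of the circulating ligand, at 16.5 and 10.2 and then 74.98 and 46.6 CPM (edgeR adjusted p = 0.0029). Of 13 genes of HGF, MET and ERBB signalling, SPINT2, given above, was the only call (all genes: 3.20% higher). HGF measured 15.9 and 22.6 and then 31.1 and 20.1 CPM, its receptor MET 15.7 and 27.03 and then 11.9 and 15.8 CPM, NRG1 13.8 and 16.05 and then 10.5 and 11.2 CPM, and the neuregulin receptor ERBB3 1.85 and 1.92 and then 1.67 and 2.48 CPM. None of these pairs reached the threshold, at fold changes on the log2 scale from −0.63 (MET) to 0.41 (HGF).

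Retinoid genes had 5 calls of 14 tested, all higher, beside 3.20% of all genes. Leaving out 1 pool left 4 or 5, and the fit of D3 and D5 alone 1. ALDH1A3, which makes retinoic acid from retinal, had 0.668 and 0.663 CPM on D3 and 21.1 and 7.72 CPM on D5 (log2 4.44 ± 0.61, edgeR adjusted p = 7.3e-04; not called without D3 B, and log2 3.53 without D5 A). CRABP1, which holds retinoic acid in the cytosol, had 0.944 and 0.741 and then 8.34 and 11.9 CPM (log2 3.58 ± 0.32, edgeR adjusted p = 2.6e-05). DHRS3, which reduces retinal, and RARRES2, given above, were called too.

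Further lists held 1 or 2 calls, beside 3.20% higher and 0.360% lower among all genes. MT1H, the 1 call among 8 tested metallothioneins, which bind zinc, went from 0.551 and 3.2 to 29.6 and 47.7 CPM and 402 and 166 CPM on D7 (D5 against D3: log2 4.34 ± 0.70, edgeR adjusted p = 0.0020; not called without D5 B, log2 3.59 without D3 A and 6.13 without D3 B), while the abundant MT2A was not called at 749.9 and 1619 and then 1681 and 1457 CPM; members of this family are so alike that reads may be exchanged between them. The 28 tested immediate early and heat shock genes had 1 rise and 1 fall. EGR2, an immediate early transcription factor, had 1.41 and 0.542 and then 14.4 and 6.98 CPM (edgeR adjusted p = 0.0023), not called without D3 B or D5 A, and its log2 fold change of 3.48 was 4.31 without D3 A and 2.86 without D5 A. FOSB, of the AP-1 family, fell, from 176 and 185 CPM on D0 to 27.3 and 66.6 on D3 and 10.1 and 6.33 on D5 (log2 −2.51 ± 0.37 between D3 and D5, edgeR adjusted p = 0.0011; −1.72 without D3 B). EGLN3, an oxygen sensor, was the only call among 36 glycolysis and hypoxia genes.

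The falls were fewer and smaller. Of 25 cholesterol synthesis genes, 2 fell, beside 0.360% of all genes, and none rose. Without D3 B 1 of them was called, and without any other pool none. The median log2 fold change was −0.39, and 12 had both D5 pools below both D3 pools, beside 17.8% of all genes. FDPS, which makes farnesyl diphosphate, went from 1269 and 1124 CPM on D0 to 856 and 861 on D3 and 419 and 414 on D5 (log2 −1.04 ± 0.19, edgeR adjusted p = 0.0044). EBP, a sterol isomerase of the later pathway, went from 334 and 305 CPM on D0 to 265 and 244 on D3 and 115 and 132 on D5 (log2 −1.05 ± 0.16, edgeR adjusted p = 0.0017). INSIG1, which holds the pathway's transcription factor back when sterols are plentiful, had 156 and 116 and then 77.7 and 75.4 CPM without passing.

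Outside that list, FABP3, which binds fatty acids in the cytosol, went from 625 and 578 CPM on D0 to 121 and 72.6 on D3 and 34.2 and 37.8 on D5 (edgeR adjusted p = 0.0054). FADS1, a fatty acid desaturase, had 106 and 131 and then 52.7 and 64.3 CPM (edgeR adjusted p = 0.0030). PCYT2, of phosphatidylethanolamine synthesis, had 67.8 and 52.7 and then 28.2 and 29.2 CPM (edgeR adjusted p = 0.0045). The largest fall among well-expressed genes was that of PRSS3, mesotrypsin, which was level on D0 (96.3 and 96.8 CPM) and D3 (90.1 and 108 CPM) and then stood at 30.3 and 29.3 CPM (log2 −1.73 ± 0.25, edgeR adjusted p = 0.0010). PRKCDBP, a cavin of the caveolar coat, had 708 and 679.6 CPM on D0, 374 and 368 on D3 and 163 and 153 on D5. LY6K, a surface protein of the Ly6 family, and CCDC85B were the remaining named falls, at log2 −1.21 and −0.88. Every fall named by the rule, FGF1, FOSB and CDKN3 included, lost its call when at least 1 pool was left out, while each kept its direction.

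Cell division genes had no call, beside 3.56% of all genes. In the list of 45 DNA replication and mitosis genes, 41 fold changes were negative (median log2 −0.40), 23 had both D5 pools below both D3 pools and none had the reverse, beside 17.8% and 21.6% of all genes. MKI67, a mark of cycling cells, had 63.1 and 117 CPM on D3 and 44.5 and 57.9 CPM on D5, and RRM2, which supplies deoxynucleotides, 114 and 76.4 and then 59.3 and 44.9 CPM. Outside the list, CDKN3, a phosphatase that acts on cyclin-dependent kinases, fell from 130.0 and 139.8 to 66.3 and 81.7 CPM (log2 −0.87 ± 0.16, edgeR adjusted p = 0.0053). Genes of cell cycle inhibition and the p53 response had no call among 30 tested: CDKN1A (p21) had 192 and 157 and then 129.7 and 99.5 CPM. The 26 genes of serine synthesis and the ATF4 stress response and the 22 of DNA methylation and chromatin had none either, and these counts of 0 are near the 3.56% of all genes called. DNMT3B, the embryonic methyltransferase, was at 0.827 and 0.563 and then 1.13 and 0.828 CPM.

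The same genes were then counted per cell. To set cells of different depth side by side, each was thinned to 5000 UMIs, which left out none of the kept cells of these pools. At that depth TDGF1 was detected in 0.159% and 0% of the D3 cells and 4.58% and 4.66% of the D5 cells (without thinning, 0.638% and 0.167% on D3 and 14.2% and 16.4% on D5). KRT8 went from 15.3% and 14.5% to 37.2% and 39.4% of cells, with 11.95% and 11.2% on D0. CD24 went from 3.99% and 3.37% to 17.2% and 22.2%, from 0.179% and 0.259% on D0. For these genes the share of cells with a UMI rose along with the pool sum. Such a share rises with the level itself, so it does not tell more expressing cells from more RNA per cell.

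Other named genes were counted in the same way. RARRES2 was found in 2.92% and 4.14% of D3 cells and 30.3% and 30.9% of D5 cells, APOE in 3.62% and 3.98% on D3 and 22.01% and 19.8% on D5, and SPP1 in 0.585% and 0.774% on D3 and 10.98% and 12.1% on D5. TNNT2 was found in 0% and 0.0209% on D3 and 5.83% and 4.54% on D5. At 5000 UMIs no cell with a UMI of TDGF1 was found in D3 B and none with TNNT2 in D3 A, which by counting error alone (3 counts) allows a UMI at that depth in up to 0.0628% of the 4779 and 0.159% of the 1881 cells and sets no limit on the cells that express the gene. FDPS was found in nearly all D3 cells, 95.96% and 96.1%, and in 83.5% and 81.7% of D5 cells, and EBP in 70.6% and 65.6% on D3 and 38.8% and 42.5% on D5. For every share named in these paragraphs both D5 pools lay on 1 side of both D3 pools, and an exact two-sided permutation test of 2 against 2 pools cannot give a p below 0.333. UMIs from free RNA can enter any droplet, and their part in these shares was not tested.

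Named genes were then read against each other within the D5 cells. D5 cells with at least 2 UMIs of an anchor gene were set against D5 cells with none. The 3 anchors were picked after the values were seen, and the other genes were read at 5000 UMIs per cell. Exact binomial intervals cover counting error only, and no test was made. These intervals treat the cells of a pool as replicates, so whether they overlap or lie apart decides nothing between pools. In 120 cells of D5 A and 73 of D5 B with TDGF1, KRT8 was found in 90% and 86.3%, against 32.5% and 34.1% of the 1516 and 681 cells without it (95% interval in D5 A 83.2 to 94.7% with and 30.1 to 34.9% without). CD24 was found in 77.5% and 73.97% with and 11.7% and 15.4% without, and L1TD1 in 75.8% and 86.3% with and 26.1% and 30.2% without. SPP1 followed, with 55% and 42.5% with and 6.93% and 8.96% without, as did CLDN6, with 16.7% and 9.59% with and 0.792% and 1.17% without. Thus the keratin, the surface glycoprotein, osteopontin and the claudin were found more often in cells that also held TDGF1. Those cells were deeper before thinning, with a median of 64471.5 and 63810 UMIs, against 42044.5 and 36636 in the cells without.

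Fibroblast products were read in the same cells. PLAU was found in 14.2% and 6.85% of the cells with TDGF1 and 40.3% and 26.3% of those without. ANPEP was found in 21.7% and 19.2% with and 49.7% and 31.9% without, CXCL1 in 25% and 23.3% with and 45.6% and 36.4% without, and IGFBP2 in 35.8% and 32.9% with and 64.97% and 61.7% without. POSTN was found in 45.8% and 36.99% with and 28.7% and 20.9% without, and SFRP2 in 25% and 20.5% with and 10.7% and 6.31% without. ACTG2 was found in 36.7% and 31.5% with and 16.95% and 18.4% without. The shares of PLAU, ANPEP, CXCL1 and IGFBP2 were thus lower with TDGF1 in both pools, and those of POSTN, SFRP2 and ACTG2 higher. In D5 B the counting intervals of ANPEP, CXCL1 and ACTG2 overlapped (ANPEP 10.9 to 30.1% with and 28.4 to 35.5% without). Whether any of these gaps exceeds the spread between pools was not tested. So IGFBP2 and CD24, which both rose in the pool sums, stood in opposite relation to TDGF1 among the D5 cells.

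Cells with the cardiac troponin TNNT2 were compared in the same way. In 203 cells of D5 A and 95 of D5 B with TNNT2, CXCL14 was found in 40.4% and 43.2%, against 4.85% and 9.57% of cells without. RARRES2 was found in 66.5% and 58.9% with and 24.04% and 27.01% without, ACTG2 in 43.3% and 41.1% with and 14.7% and 16.2% without, and KRT8 in 76.4% and 69.5% with and 30.5% and 33.95% without. L1TD1 was found in 54.2% and 57.9% with and 25.4% and 34.1% without, SPP1 in 29.6% and 22.1% with and 7.703% and 10.2% without, and CD24 in 29.6% and 23.2% with and 14.5% and 22.2% without, the last nearly level in D5 B. TNNT2 itself was found in 7.5% and 5.48% of the cells with TDGF1 and 5.94% and 4.26% of those without. The counting intervals of TNNT2 overlapped in both pools (3.49 to 13.8% and 4.8 to 7.25% in D5 A), from which no lack of relation is read. Read the other way, TDGF1 was found in 6.897% and 11.6% of the cells with TNNT2 and 3.85% and 3.86% of those without. Counting intervals were 3.82 to 11.3% and 2.91 to 4.996% in D5 A, and 5.92 to 19.8% and 2.51 to 5.64% in D5 B. A relation between TDGF1 and TNNT2 was not tested. Cells with TNNT2 were also deeper before thinning, with a median of 57193 and 51940 UMIs, against 40799 and 37391 in those without.

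The third anchor was CXCL8. In 264 cells of D5 A and 79 of D5 B with CXCL8, CXCL1 was found in 80.3% and 65.8%, against 37.5% and 29.9% of cells without, and CXCL6 in 32.6% and 27.8% against 5.27% and 4.46%. PLAU was found in 64.4% and 46.8% with and 33.4% and 21.5% without, ANPEP in 78.4% and 58.2% with and 42.2% and 27.1% without, and HGF in 29.5% and 24.1% with and 12.1% and 8.595% without. RARRES2 was less frequent there, at 12.5% and 13.9% against 33.8% and 34.2%. CXCL14 was found in 4.55% and 11.4% with and 10.3% and 14.7% without, lower with CXCL8 in both pools. Its counting intervals overlapped in D5 B, and the gap was not tested.

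**Figure D4:**
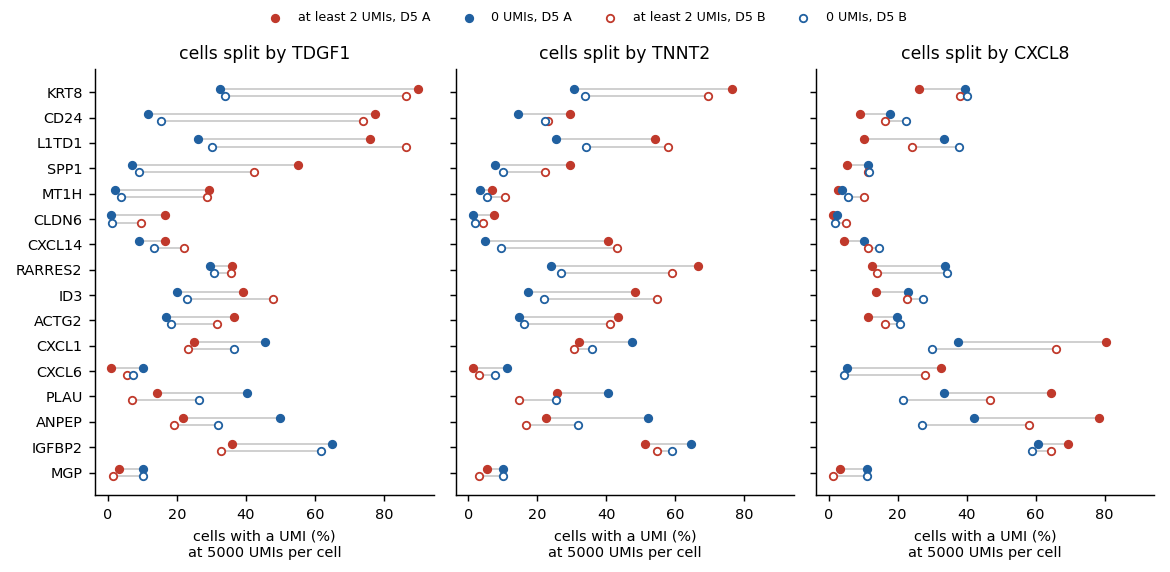
Share of D5 cells with a UMI of 16 genes at 5000 UMIs per cell (horizontal axis, %), for cells with at least 2 UMIs of the anchor (red) and with none (blue), in D5 A (filled) and D5 B (open); the panels split cells by TDGF1, TNNT2 and CXCL8. KRT8, CD24 and L1TD1 lie far to the right in cells with TDGF1, CXCL14 and RARRES2 in cells with TNNT2, and CXCL1, CXCL6, PLAU and ANPEP in cells with CXCL8.

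The 409 rises were then set against the days on either side. Testing needed detection in at least 5% of kept cells of all days. That filter favours genes high on later days and can leave out genes high on D5 alone. Of the 409 genes, 381 were above both D0 pools in both D5 pools, and 215 had under 1 CPM in every pool of D0 and D3. Both D7 pools were above both D5 pools for 258 of them and below for 58, and 93 overlapped. These counts share the D5 pools with the comparison itself and are given as a description. No share over all genes was taken beside them, so they are not read as a trait of the rises. TDGF1 was among those that went on, to 133 and 100.3 CPM on D7, as was UTF1, to 84.1 and 44.5 CPM, and SPP1, to 394 and 258 CPM. On D7 CXCL8 had 7.46 and 12.5 CPM, CXCL1 115 and 147 CPM, CXCL6 8.49 and 13.1 CPM and CCL7 5.62 and 8.64 CPM. Of the 46 falls, 30 continued a fall from D0 to D3 in which both pools took part, and 14 reversed a rise of that kind. These counts of falls share the D3 pools with the comparison and are likewise a description.

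**Figure D5:**
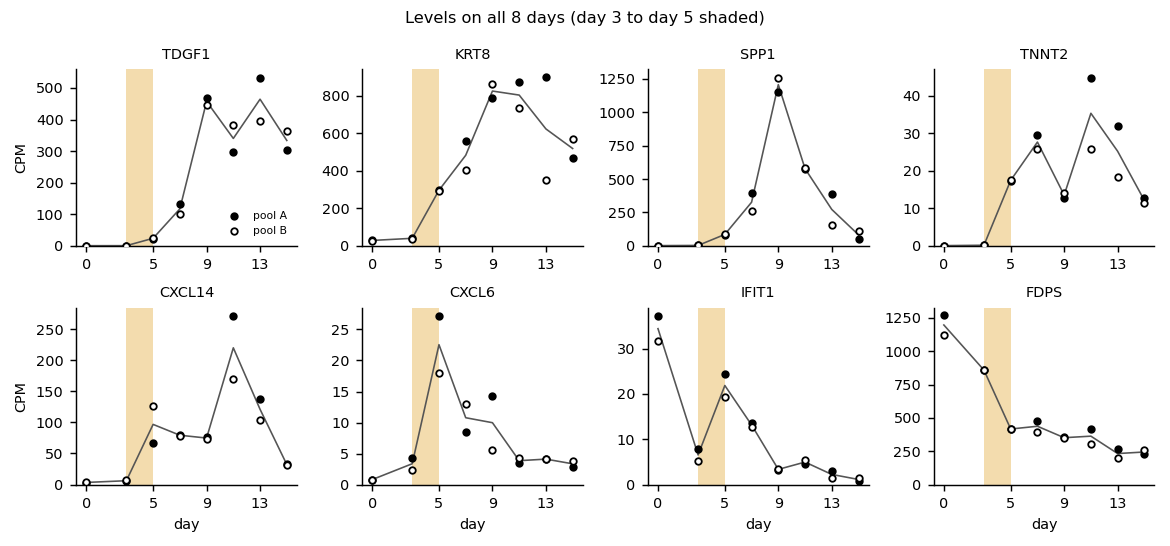
CPM of 8 genes (vertical axes, each from 0) in pool A (filled) and pool B (open) on all 8 sampled days (horizontal axis), with the line through the mean of both pools and the span from day 3 to day 5 shaded. TDGF1, KRT8 and SPP1 climb beyond day 5, CXCL6 peaks at day 5, IFIT1 regains part of its day 0 level and then declines, and FDPS drops within the shaded span and stays low.

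Promoter sequence was examined for the lists with 5 or more called genes, whose 50 called genes had 35 windows in RefSeq (GRCh38.p14, from 250 bases before to 50 after the start). The letters TGANTCA (N for any base), a broad form of the AP-1 binding motif, were read on both strands. They were found in 6 of the 35 (17.1%), in 7.76% of all 27305 windows and in 7.25% of the 276 windows of all genes called higher. In CCL7 and ANKRD1 the match was TGATTCA, whose middle base is T and not the G or C of the usual AP-1 site. GAAANNGAA, a core of the interferon response element, was in 2 of 35 and in 8.29% of all windows. CACGTG, the E-box bound by MYC, was in 1 of 35 and in 7.43%, and ATGCAAAT, the octamer bound by POU5F1, in none of 35 and in 1.80%. The hypoxia core ACGTG, which is contained in CACGTG, was in 3 of 35 and in 21.6%. From the windows with TGANTCA, those of 4 named genes of the chemokine, retinoid and matrix groups are printed 5′ to 3′ on the gene's strand, with the motifs in capitals (POSTN also holds GAAANNGAA) to show this motif in genes whose values are given above. They lie at chr5:135578942-135579241 (CXCL14, minus), chr17:34269971-34270270 (CCL7, plus), chr15:78340103-78340402 (CRABP1, plus) and chr13:37598719-37599018 (POSTN, minus).
CXCL14: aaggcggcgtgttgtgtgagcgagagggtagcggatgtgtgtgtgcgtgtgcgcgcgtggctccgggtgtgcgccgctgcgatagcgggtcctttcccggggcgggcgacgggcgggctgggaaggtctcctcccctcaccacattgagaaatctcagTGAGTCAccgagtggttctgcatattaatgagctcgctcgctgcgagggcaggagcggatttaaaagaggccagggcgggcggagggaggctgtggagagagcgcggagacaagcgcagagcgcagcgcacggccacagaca
CCL7: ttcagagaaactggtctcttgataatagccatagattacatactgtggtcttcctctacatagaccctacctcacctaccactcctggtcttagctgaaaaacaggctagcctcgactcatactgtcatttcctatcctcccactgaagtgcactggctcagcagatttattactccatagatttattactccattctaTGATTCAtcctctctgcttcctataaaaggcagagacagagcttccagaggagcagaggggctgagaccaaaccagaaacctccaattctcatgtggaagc
CRABP1: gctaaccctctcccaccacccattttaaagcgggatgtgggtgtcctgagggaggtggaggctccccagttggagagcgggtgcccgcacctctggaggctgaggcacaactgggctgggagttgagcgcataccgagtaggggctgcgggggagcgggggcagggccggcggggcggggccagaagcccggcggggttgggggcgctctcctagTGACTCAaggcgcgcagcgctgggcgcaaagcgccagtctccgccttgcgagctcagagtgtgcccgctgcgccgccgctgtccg
POSTN: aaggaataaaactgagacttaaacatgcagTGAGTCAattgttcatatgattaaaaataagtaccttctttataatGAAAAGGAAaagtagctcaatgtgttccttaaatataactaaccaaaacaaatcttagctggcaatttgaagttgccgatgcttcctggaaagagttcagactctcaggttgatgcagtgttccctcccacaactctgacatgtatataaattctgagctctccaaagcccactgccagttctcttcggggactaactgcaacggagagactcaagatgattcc
A match here is a description of these letters, not of a bound factor, and the windows were chosen with the calls known.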

How the data were processed

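Single-cell libraries (10x Genomics 3' v2) were aligned to hg38 and counted with Cell Ranger 2.2 by the authors, whose deposited matrices hold raw UMI counts per gene and cell for 33694 genes; no authors' normalization entered. Groups followed the time given for each sample. Cells were filtered as stated above (342 of 9584 barcodes of D3 and D5 removed), and counts were summed per pool. Genes detected in at least 5% of kept cells of all days were tested with edgeR 4.0.16 (quasi-likelihood, TMM) in 1 fit of all 16 pools with day as group, which share 1 estimate of spread. Gene coordinates came from GENCODE by identifier, and cells were thinned in Python 3.11.15 (numpy 2.4.6). Counting does not tell transfected from cell-made RNA.

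Named genes were the 10 largest rises and the 10 largest falls with at least 50 CPM in both pools of the higher day. For these the D3 and D5 pools also had to lie apart. Also named were the 3 largest calls per list with at least 5 CPM, the transfected factors, their companions and genes named in the study's text. The comparison, members and lists were chosen with earlier results of these data known. Library depth and counting error are given above; 19 alternatives are given below.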

Additional observations from a re-analysis of the deposited data

How the results depend on the processing

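No called gene changed direction under any of the 19 alternatives, but the number of calls differed between them. In place of 455 calls (409 higher on D5, 46 lower), DESeq2 called 889 (682 and 207), no filter on genes 831 (664 and 167), and calling every gene whose adjusted p was under 0.05, whatever its fold, 910 (724 and 186). A fit of the D3 and D5 pools alone called 27 in edgeR (27 and 0, with 1372 genes at an unadjusted p below 0.05), the pools of D0 to D7 233 (222 and 11), 500 cells per pool 244 (223 and 21), and aliquot 2 of each pool that has one 291 (270 and 21). Leaving out 1 pool gave 229 to 321 calls, 213 to 285 higher and 1 to 36 lower: 321 without D3 A, 229 without D3 B, 235 without D5 A and 246 without D5 B. TMM factors over all genes with a UMI, an alternative added after seeing the data, gave 137 lower genes, 316 higher ones and a median log2 fold change of −0.21; of the named genes it lost BST2, COL4A1, ID1, IFIT1, IGFBP2, L1TD1 and NID2. Detection averaged over days, also added then, gave 486 calls. DESeq2 size factors (454), sums thinned to the smallest pool (348), the stricter cell filter (382), all barcodes (468) and aliquot 1 (397) stayed within 1.5 times. With the pool letter as a replicate block 468 genes were called (418 and 50), NID2 no longer among them; the labels tie the letters to nothing shared, and the A minus B deviations correlated by 0.58 between D3 and D5, so that these pools deviated together, and by −0.41 to 0.81 over 28 pairs of days. Of 50 named calls, CD24, FOXH1, KRT8, RARRES2, SPP1, TDGF1, TNNC1 and TNNT2 (8) were called in all 19 alternatives, and 29 were lost without at least 1 pool, 14 without D3 A, 21 without D3 B, 25 without D5 A and 21 without D5 B. CXCL1, CXCL8, MMP3, SOX2, INHBA, LEFTY2, MYC and LIN28A were gained under some. IL1B was called without the gene filter (adjusted p = 0.00033) and not with detection averaged over days (0.016). The share of cells with AES, negative as D5 minus D3 at 5000 UMIs, was 0.0214 percentage points at 10000 UMIs and 0 without thinning, and that of MMP1 was 0.0347 without thinning. The cause of these changes was not tested. The smallest D5 pool, D5 B, held 35282799 UMIs of 815 cells, so genes of low level rest on few UMIs there.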

Other observations

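Of the 455 called genes, 382 belonged to none of the 25 lists. The genes named here were chosen after their values were seen. GPC4, a glypican that binds growth factors, stood at 1.06 and 0.556 CPM on D3 and 13.1 and 13.3 CPM on D5 (log2 4.05 ± 0.28, edgeR adjusted p = 4.0e-06). FOLR1, a folate receptor, stood at 0.191 and 0.192 and then 7.99 and 11.8 CPM, and APELA, a peptide hormone made by human embryonic stem cells, at 2.49 and 2.94 and then 15.3 and 20.2 CPM. The heparin-binding growth factor MDK, well expressed throughout, went from 107 and 95.4 to 236 and 288 CPM (edgeR adjusted p = 1.3e-04), and OLFML3, a secreted matrix protein, from 178 and 123 to 545 and 420.3 CPM. The cartilage collagen gene COL2A1 went from 0.180 and 0.271 to 5.65 and 7.54 CPM.

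MEST, an imprinted gene, went from 5.31 and 1.41 to 49.7 and 38.6 CPM (edgeR adjusted p = 0.0024), DIRAS3 from 6.003 and 6 to 19.5 and 13.3 CPM and DLK1 from 0 and 0.0214 to 1.28 and 1.24 CPM, while IGF2, at 9.397 and 8.54 and then 25.8 and 19.8 CPM, was not called (edgeR adjusted p = 0.099). Transcripts of the noncoding genes PCAT14 and LINC00678 came on as well, PCAT14 from 0.0848 and 0.0926 to 7.54 and 16.2 CPM and LINC00678 from 0.562 and 0.485 to 4.801 and 7.896 CPM. MAP1LC3C, of the autophagy LC3 family, peaked at D5 in this stretch, with 0.0194 and 0.0142 CPM on D0, 1.79 and 6.699 on D3, 38.9 and 86.6 on D5 and 14.3 and 7.01 on D7 (D5 against D3: edgeR adjusted p = 0.0033).

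DCTPP1, which clears damaged deoxynucleotides, had 31.5 and 29.1 CPM on D0, 155 and 140.3 on D3 and 85.6 and 82.7 on D5 (edgeR adjusted p = 0.0043). Its fall thus followed a gain between D0 and D3. PNP, a purine salvage enzyme, had 5.69 and 6.09 CPM on D0, 28.5 and 29.04 on D3 and 15.5 and 15.9 on D5. DTYMK, which makes thymidine diphosphate, had 121 and 120.1 CPM on D0, 187 and 184 on D3 and 106 and 108 on D5. P2RX5, an ATP-gated channel, had 0.220 and 0.199 CPM on D0, 12.7 and 9.499 on D3 and 4.02 and 3.16 on D5. The mitotic transcription factor FOXM1 fell from 24.3 and 25.7 to 13.3 and 11.7 CPM and was back at 19.8 and 20.7 CPM on D7. CIDEA, a lipid droplet protein, was lower at each step, from 6.85 and 6.45 CPM on D0 to 2.195 and 2.55 on D3 and 0.213 and 0.237 on D5 (log2 −3.42 ± 0.44 for the latter step, edgeR adjusted p = 4.0e-04).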
